A study of Mus musculus with 3 samples.

Results

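Calcium enters neurons through voltage-gated channels, which open when the membrane is depolarised. Each channel has a pore-forming alpha1 subunit, which sets the current type (L, P/Q, N, R or T). Many channels also have beta, alpha2delta and, in some, gamma subunits that control their number and gating. Calcium is also released from the endoplasmic reticulum through inositol trisphosphate (IP3) receptors and ryanodine receptors, is pumped back into this store by SERCA pumps and out of the cell by PMCA pumps, and enters through ORAI channels when the STIM sensors detect that the store is empty. In the cerebellum, Purkinje cells are known for a large P/Q-type current and for abundant IP3 receptors. The 44 genes for these channels, receptors, pumps and sensors were taken by symbol from the 21757 protein-coding genes of the GENCODE M39 annotation on chromosomes 1 to 19, X and Y, and all 44 were found. They fall into 11 families.

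The data are nanopore-sequenced hMeDIP libraries of cerebellum DNA, in which an antibody pulls down fragments that carry 5-hydroxymethylcytosine (5hmC). All 3 replicates came from an untreated, 8-week-old female mouse of the strain C57Bl6Cr. Their library names carry the same animal, so their spread reflects separate immunoprecipitations, not separate mice, and p-values cover no spread between mice. The DNA came from all cells of the tissue together. Whole serum served as the antibody for replicate 1, and an IgG-purified fraction for the others, so antibody and replicate 1 cannot be told apart. The authors deposited peaks called in each replicate and, at each CpG site that a peak of at least 1 replicate covers, counts of 5hmC, 5mC (5-methylcytosine) and unmodified C base-calls on the forward strand. The peak lists held 496, 8544 and 5166 peaks in replicates 1, 2 and 3, and the base-call counts held 69822, 104119 and 75591 calls. Gene expression was not analysed here.

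Overlapping peaks were merged into 13339 regions, and a region was counted to a gene if its midpoint lay in the gene or in the 1 kb upstream of it. Of the 44 genes, 23 had at least 1 region, against 20% of all protein-coding genes. They held 176 regions in all, made of 5, 115 and 63 peaks in replicates 1, 2 and 3. A peak in 2 replicates was found in 7 of the 176 regions (3.98%), against 6.13% of the regions of other protein-coding genes, and none of the 7 had a peak in all 3 replicates. These 7 regions lie in Cacna1c (3), Cacna1a (2), Cacna1d (1) and Cacnb2 (1). The sequences of 4 of them, 1 for each gene, are shown because a second replicate had a peak in the same region. Each is 300 bases of the forward strand of GRCm39 around the summit of the higher peak (in Cacna1d, the first 300 bases of the region), in lower case, with capitals at each CpG that had at least 1 call of 5hmC in any replicate.

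Cacna1a, chr8:85296368-85296667: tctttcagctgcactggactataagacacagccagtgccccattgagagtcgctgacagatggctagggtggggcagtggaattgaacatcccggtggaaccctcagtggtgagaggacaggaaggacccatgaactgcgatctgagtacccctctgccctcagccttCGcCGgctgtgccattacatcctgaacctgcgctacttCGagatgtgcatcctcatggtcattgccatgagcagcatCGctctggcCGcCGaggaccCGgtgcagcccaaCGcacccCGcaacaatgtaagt

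Cacna1c, chr6:118898578-118898877: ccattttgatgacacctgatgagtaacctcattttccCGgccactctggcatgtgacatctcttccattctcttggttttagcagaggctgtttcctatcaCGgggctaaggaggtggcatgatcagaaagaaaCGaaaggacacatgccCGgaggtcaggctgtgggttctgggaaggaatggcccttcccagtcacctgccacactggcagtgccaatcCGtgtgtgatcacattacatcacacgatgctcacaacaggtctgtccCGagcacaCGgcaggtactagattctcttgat

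Cacna1d, chr14:29930819-29931118: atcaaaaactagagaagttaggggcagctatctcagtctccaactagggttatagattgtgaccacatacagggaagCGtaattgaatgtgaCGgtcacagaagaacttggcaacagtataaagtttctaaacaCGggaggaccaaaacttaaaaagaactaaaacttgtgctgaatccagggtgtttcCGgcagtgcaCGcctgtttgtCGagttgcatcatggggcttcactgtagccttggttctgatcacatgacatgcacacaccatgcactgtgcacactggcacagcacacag

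Cacnb2, chr2:14631759-14632058: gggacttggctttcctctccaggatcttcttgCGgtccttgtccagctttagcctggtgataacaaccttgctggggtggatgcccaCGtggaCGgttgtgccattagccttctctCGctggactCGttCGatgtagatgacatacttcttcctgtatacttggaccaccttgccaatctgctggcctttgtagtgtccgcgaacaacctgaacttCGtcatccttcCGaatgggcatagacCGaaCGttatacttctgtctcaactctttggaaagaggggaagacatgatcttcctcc

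The window in Cacna1a, a gene on the forward strand, covers exon 22 of the canonical transcript, of which 130 coding bases lie in it. Of its 13 CpG sites, 9 had a call of 5hmC, and 5hmC made up 5 of 12 calls in replicate 2 and 14 of 32 in replicate 3. Replicate 1 had no call there. The windows in Cacna1c and Cacna1d lie in intron 3 of genes on the reverse strand. In Cacna1c 7 of 8 CpG sites had a call of 5hmC, and all 25 calls, 11 of them 5hmC, came from replicate 3. The calls of the other replicates in this region lie outside the window. In Cacna1d all 6 CpG sites had one, with 5hmC in 4 of 5, 3 of 5 and 6 of 9 calls in replicates 1, 2 and 3. The window in Cacnb2 lies upstream of the canonical transcript, within the annotated gene, and overlaps the processed pseudogene Gm13268. There 10 of 12 CpG sites had a call of 5hmC, with 9 of 18, 1 of 6 and 0 of 4 calls in replicates 1, 2 and 3. The part of the pseudogene in this region's peaks was not tested.

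The regions of these genes were denser than those of other genes. The genes were chosen with earlier results of these data known. This difference and the counts of genes called below are therefore a description, not support for an enrichment. The 44 genes span 8.03 Mb and held 21.9 regions per Mb, against 10.1 per Mb in all other protein-coding genes, a ratio of 2.17. Without replicate 2, which has the most peaks, these were 8.47 and 4.26 per Mb, a ratio of 1.99. Counted by replicate, they held 0.623, 14.3 and 7.85 peaks per Mb (mean 7.60 ± 6.85, SD, n = 3). All other protein-coding genes held 0.384, 6.44 and 3.93, in the same order of replicates. The ratio of both was 1.62, 2.22 and 1.99 (1.95 ± 0.305, SD, n = 3), above 1 in 3 of 3 replicates. The ratio of replicate 1 rests on 5 peaks. Per CpG dinucleotide the ratio was 2.16. The genes are long, with a median of 106 kb against 19.2 kb for all protein-coding genes, and longer genes more often hold a region. Among genes of over 200 kb, 12 of 13 had a region, against 62.6% of all 1015 such genes, and the density was 21.4 regions per Mb against 8.11. Among genes of 50 to 200 kb, 10 of 17 had one, against 38.4% of all such genes, with 27.2 regions per Mb against 11.7. Among those under 50 kb the order turned, with 1 of 14 against 12.7% and 2.89 regions per Mb against 11.3. Cacna1c and Cacna1a together held 52 of the 176 regions (29.5%), and without them the ratio to other genes was 1.73.

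The pore-forming alpha1 subunits held most of the regions. The L-type gene Cacna1c, on chromosome 6 (118564201 to 119173851), had 34 regions, and only 4 protein-coding genes had more. Cacna1d, also L-type, had 10, whereas Cacna1s, the channel of skeletal muscle, and Cacna1f, that of the retina, had 0. The P/Q-type gene Cacna1a, on chromosome 8 (85065224 to 85367997), had 18, the R-type gene Cacna1e 12 and the N-type gene Cacna1b 2. Among the T-type genes, Cacna1i had 10 regions in 111 kb and Cacna1g 5 in 66.0 kb, which with Atp2b1 were the highest densities of the 44 genes (90.1 and 75.7 per Mb), while Cacna1h (59.5 kb) had 0. As families, the T-type genes held 63.4 regions per Mb, the L-type genes 38.04 and the P/Q, N and R-type genes 33.5.

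Of the auxiliary subunits, the 4 alpha2delta genes all had a region and held 16.6 per Mb. Cacna2d2 had 9 regions in 130 kb (69.4 per Mb), and Cacna2d3, the longest of the 44 genes at 818 kb, had the same number (11.01 per Mb). Cacna2d1 had 6 and Cacna2d4 had 1. Among the beta subunits Cacnb4 had 10 and Cacnb2 had 1, and Cacnb1 and Cacnb3 had 0. Of the 8 gamma subunit genes only Cacng2, which encodes stargazin, an auxiliary subunit of AMPA receptors, had any (7 regions). Cacng1, Cacng3, Cacng4, Cacng5, Cacng6, Cacng7 and Cacng8 had 0.

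Among the pumps and store genes, the PMCA genes stood highest, with 39.5 regions per Mb. Atp2b2, a PMCA pump abundant in Purkinje cells, had 13 regions, Atp2b1 had 9 and Atp2b4 had 1, and Atp2b3 had 0. The SERCA genes Atp2a1, Atp2a2 and Atp2a3 had 0 in 0.0996 Mb, where 1.08 peaks are predicted from their length. Itpr1, the IP3 receptor of Purkinje cells, had 3 regions in 338 kb (8.88 per Mb), below the 10.1 of all other genes and above the 8.11 of genes of over 200 kb. Itpr2 had 5 and Itpr3 had 3. Ryr2 had 6 regions, and neither Ryr1 nor Ryr3 had any, although Ryr3 is 586 kb long. Of the genes of store-operated entry, Stim1 and Orai1 had 1 region each, and Stim2, Orai2 and Orai3 had 0. The bar plot of regions per Mb shows these genes in order.

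**Figure D1:**
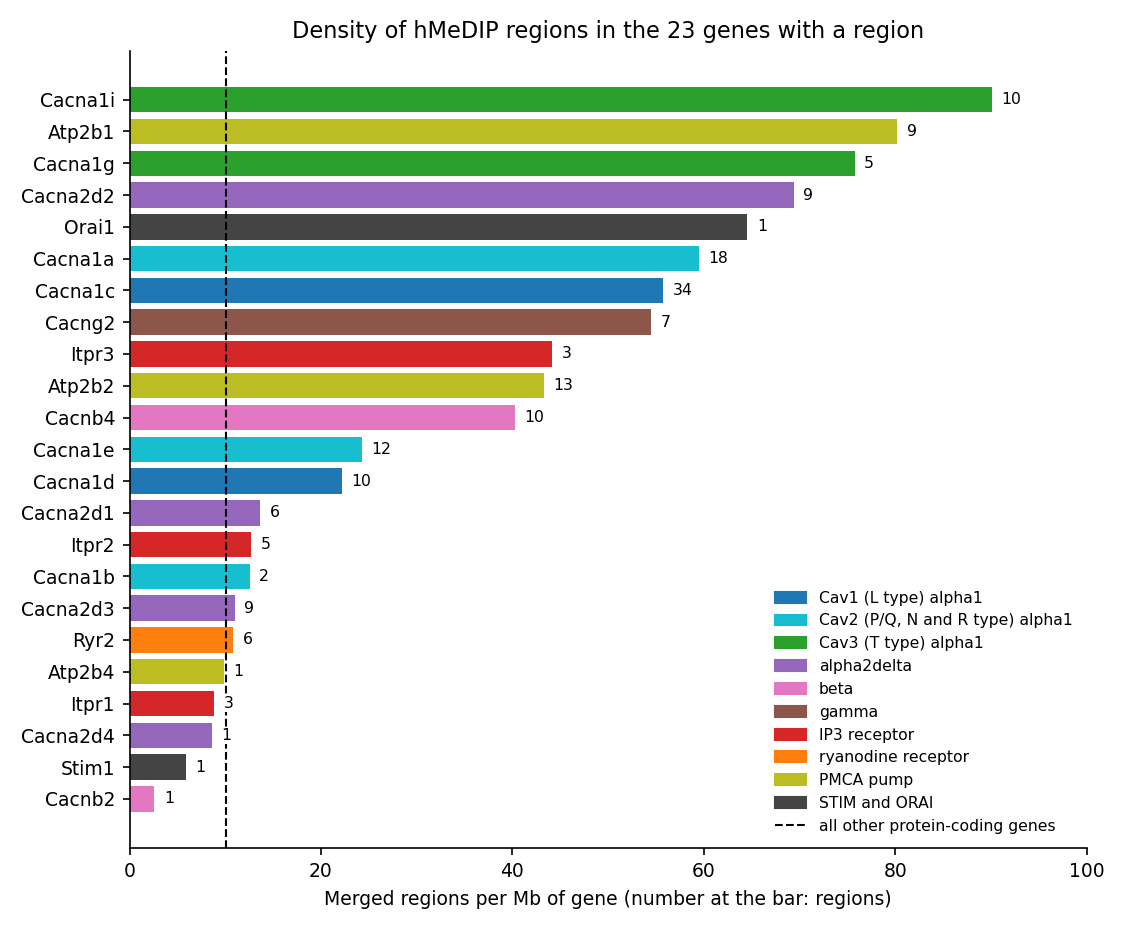
Merged hMeDIP regions per Mb of gene (horizontal axis) for the 23 of 44 genes with a region, coloured by family, with the number of regions at each bar and a dashed line at the 10.1 regions per Mb of all other protein-coding genes. The T-type genes Cacna1i and Cacna1g and the pump Atp2b1 lie far to the right of the line, while Itpr1, Cacna2d4, Stim1, Cacnb2 and Atp2b4 lie to its left. The bar of Orai1 rests on 1 region.

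To compare single genes, the peaks of each replicate were counted per gene and set against the number that the length of the gene predicts from the density over all protein-coding genes. The difference was tested with edgeR's quasi-likelihood test (two-sided, Benjamini-Hochberg adjustment, threshold 0.05) in the 657 genes with at least 3 predicted peaks. Of these, 9.13% were called higher and 16.3% lower, and 12 of the 44 genes were among them. The balance of both directions turned with the scaling, from 60 higher and 107 lower to 47 and 18 with CpG dinucleotides as offset, 60 and 44 with TMM factors and 24 and 0 with DESeq2, and to 59 and 9 without replicate 1. Without replicate 2 they were 20 and 38, and without replicate 3 they were 33 and 140. Higher than predicted were 3 of the 12, namely Cacna1c, Cacna1a and Atp2b2, and lower was 1, Ryr3. The median difference (log2) was -1.71 over the 657 genes and 0.15 over the 12. These log2 differences are edgeR's fitted coefficients, which include a small prior count. They therefore differ from the log2 of counted over predicted peaks (in Cacna1a 5.05 times as fitted and 6.09 times as counted). The SE of a density difference is the log2 difference divided by the square root of the F statistic, an approximation.

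Cacna1c had 2, 22 and 13 peaks in replicates 1, 2 and 3, where its length predicts 0.235, 3.96 and 2.42. All 3 replicates lay above the prediction, and the fitted density was 2.34 ± 0.24 above it (log2, SE, edgeR adjusted p = 2.34e-14). Its replicates varied less than Poisson counting, so this p-value is a Poisson one and leaves out the spread between them. Cacna1a had 0, 12 and 8 peaks, against 0.117, 1.97 and 1.20 predicted, with a difference of 2.34 ± 0.41 (log2, SE, edgeR adjusted p = 5.22e-07). Atp2b2 had 1, 7 and 5 peaks, against 0.116, 1.95 and 1.19, with a difference of 1.74 ± 0.50 (log2, SE, edgeR adjusted p = 0.00456). In both genes replicates 2 and 3 lay above the prediction. The call of Cacna1c remained under each of the 8 alternatives tried. That of Cacna1a was lost with DESeq2 (log2 difference 2.09) and without replicate 2 (2.18). That of Atp2b2 was lost without replicate 2 (1.79) and without replicate 3 (1.70). The differences themselves stayed near the 2.34 and 1.74 above.

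Ryr3 had 0 peaks in each replicate, against 0.226, 3.80 and 2.32 predicted, 6.35 in all. Its edgeR adjusted p was 0.0445, and the call remained only without replicate 3, being lost under all other alternatives that gave a value. Cacna1e had 0, 10 and 2 peaks, against 0.191, 3.21 and 1.96, so that its excess came from replicate 2, and it did not pass the test (log2 difference 1.02, edgeR adjusted p = 0.0884). Neither did Cacna1d, with 0, 8 and 3 peaks against 0.174, 2.93 and 1.79 (log2 difference 1.01, edgeR adjusted p = 0.0954). Cacna2d3 had 0, 6 and 3 peaks, close to the 0.316, 5.31 and 3.24 predicted. Cacnb2 had 0, 1 and 1, against 0.149, 2.51 and 1.53, both peaks being those over the pseudogene. Itpr1, Itpr2, Ryr2 and Cacna2d1 also did not pass, with 3, 5, 6 and 6 peaks in all against 3.66, 4.27, 6.01 and 4.77 predicted.

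**Figure D2:**
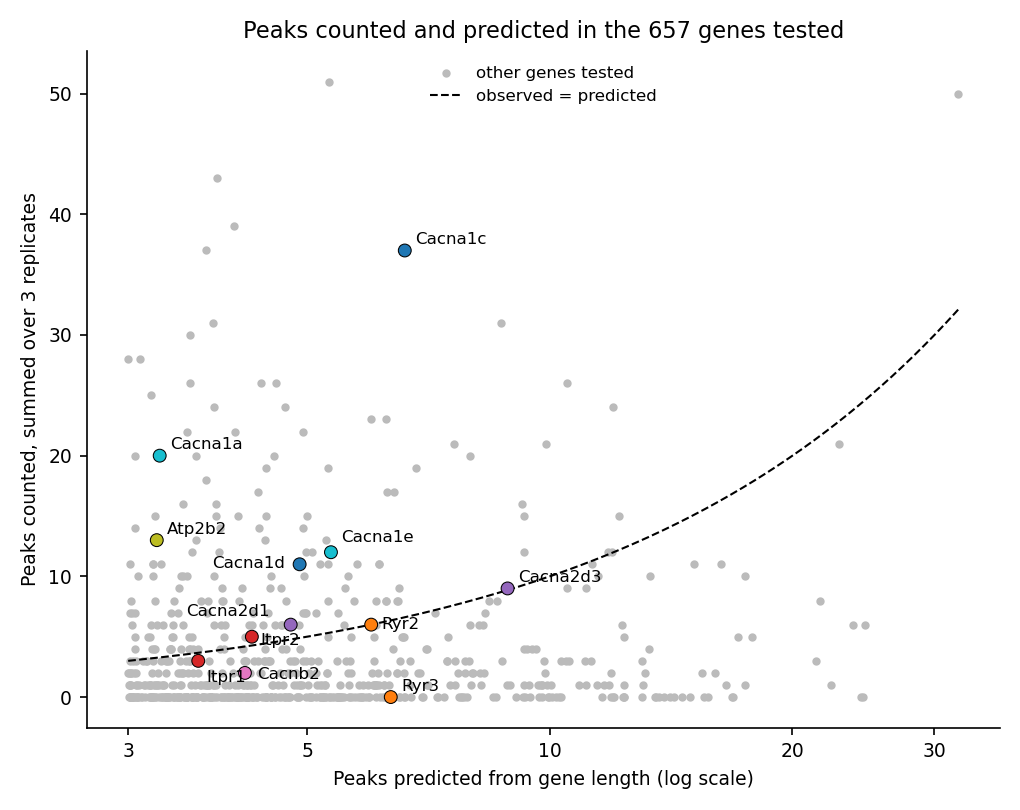
Peaks counted in a gene, summed over the 3 replicates (vertical axis), against the peaks predicted from its length (horizontal axis, log scale) for the 657 genes tested, with the 12 calcium genes coloured by family and a dashed curve where both are equal. Cacna1c (37 peaks), Cacna1a (20) and Atp2b2 (13) lie well above the curve, Ryr3 (0) lies below it, and many other long genes lie at 0.

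Shorter genes could be tested only with fewer predicted peaks. With at least 1 predicted peak, 2823 genes were tested, of which 9.0% were called higher and 2.59% lower, and 24 of the 44 genes were among them. Higher than predicted were 8 of the 24, and edgeR called none lower (1 of the 24 had an unadjusted p below 0.05; DESeq2, run on the 657 genes, called none lower). Beside Cacna1c, Cacna1a and Atp2b2 these were Cacna1i, Atp2b1, Cacna2d2, Cacng2 and Cacnb4. Cacna1i had 0, 6 and 4 peaks, against 0.0429, 0.721 and 0.440 predicted, the highest ratio of the 5 (log2 difference 2.41 ± 0.53, SE, edgeR adjusted p = 0.000177). Atp2b1 had 0, 5 and 4, against 0.0433, 0.729 and 0.445 (2.25 ± 0.55, edgeR adjusted p = 0.000792). Cacna2d2 had 0, 7 and 2, against 0.0501, 0.843 and 0.514 (2.12 ± 0.54, edgeR adjusted p = 0.00186). In all 5 genes the counts of replicates 2 and 3 lay above the prediction. Cacng2 had 1, 3 and 3, against 0.0496, 0.834 and 0.509 (1.78 ± 0.56, edgeR adjusted p = 0.0168), and Cacnb4 0, 5 and 5, against 0.0959, 1.61 and 0.985 (1.59 ± 0.51, edgeR adjusted p = 0.0214). The other 20 genes have under 1 predicted peak each, so that a lower density in them was not detectable at this depth.

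The peaks themselves were low. The fold enrichment over input, as the authors' peak caller gave it at the summit, had medians of 4.72, 3.81 and 3.85 in the 3 replicates for the regions of the 44 genes, and its highest value was 7.74, in intron 20 of Cacna1a in replicate 3. From the steps between these values, the reads at a summit were estimated at 3 or fewer for 154 of the 183 peaks (84.2%). In replicates 2 and 3 the share was 85.2% and 87.3%, against 81.0% and 82.1% of all peaks, and in replicate 1 it was 1 of 5, against 26.0%. The regions had a median length of 304 bp, 1.64 CpG per 100 bp and a GC content of 49.3%. The same medians over all regions in protein-coding genes were 304 bp, 1.81 CpG per 100 bp and 49.3%.

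Most regions lay in introns. By their midpoint, 143 of 176 (81.3%) lay in an intron of the canonical transcript, 50 of them (28.4% of 176) in the first intron, against 78.1% and 31.4% in other genes. A further 24 lay within the annotated gene but outside its canonical transcript, and 1, of Atp2b2, lay just upstream of the gene. At least 1 base of a coding exon was covered by 21 of 176 regions (11.9%), against 19.5% in other genes. Of the 21, 9 were in Cacna1a, which has 18 regions. Of 3 equal parts of a gene, the one at its start held 65 of the regions, the middle one 56 and the one at its end 55, or 36.9%, 31.8% and 31.3%, against 37.9%, 30.2% and 31.8% in other genes. No region of the 44 genes lay in another protein-coding gene as well.

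Single genes departed from this. In Cacna1c, 11 of the 34 regions lay in intron 1 within 35.7 kb, from 92.1 to 128 kb after the gene start, in an intron of 50.4 kb, which makes up 8.27% of the gene's length and holds 32.4% of its regions. Another 13 lay spread over 220 kb of intron 3, an intron of 272 kb, and 3 within 2.21 kb of intron 10. In Cacna1a, 3 regions had midpoints between 228 kb (intron 20) and 231 kb (intron 21) from the gene start, and both of its regions with peaks in 2 replicates were among them. In Cacna1e, 10 of 12 regions lay in the first 156 kb, upstream of the canonical transcript, and in Atp2b2 7 of 13 did. In Cacnb4, 7 of 10 lay in intron 1, which is 32.4% of the gene's length, and in Ryr2 5 of 6, in an intron of 29.0% of the length. In Cacng2 6 of 7 and in Atp2b1 5 of 9 lay in intron 1, near the 81.9% and 47.5% of the length that it takes up. The positions are a description of single peaks, and most come from 1 replicate.

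**Figure D3:**
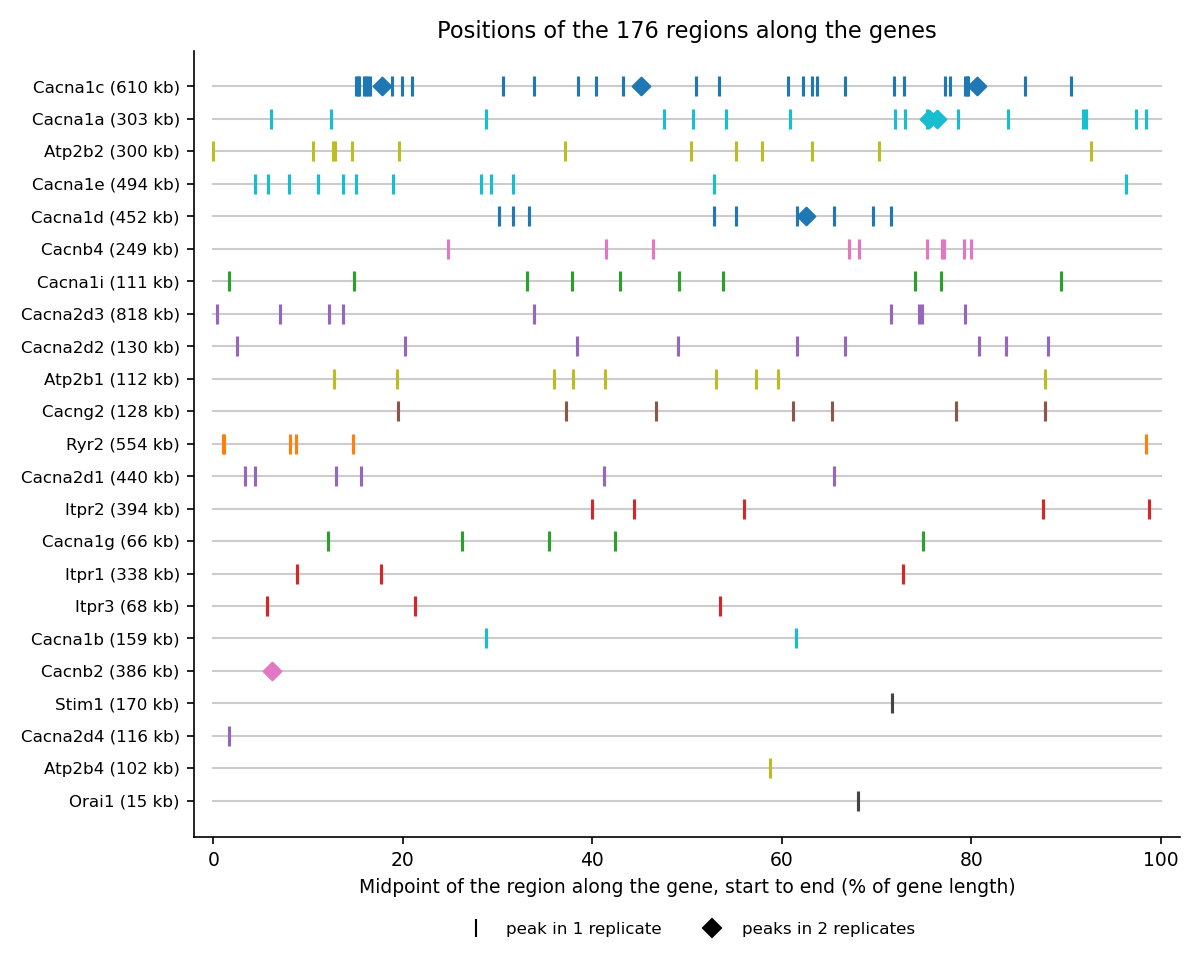
Midpoints of the 176 regions along each of the 23 genes (horizontal axis, percent of gene length from start to end, genes ordered by number of regions and coloured by family). Bars are regions with a peak in 1 replicate and diamonds the 7 with peaks in 2 replicates. The 11 regions in intron 1 of Cacna1c form the dense group near its left end, and the 2 diamonds of Cacna1a lie side by side.

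The base-calls tell which modification the pulled-down CpG sites carried. The regions of the 44 genes held 536, 944 and 815 calls in the 3 replicates. The median site had 1 call and no site more than 4. Of the calls of replicate 1, 35.4% were 5hmC (exact binomial 95% interval 31.4 to 39.7%), against 37.0% (33.9 to 40.1%) of those of replicate 2 and 32.6% (29.4 to 35.98%) of those of replicate 3, a mean of 35.0 ± 2.198% (SD, n = 3). Calls on 1 read are not independent, so the intervals cover counting error only. In all other protein-coding genes the shares were 30.4%, 32.3% and 31.6% (31.5 ± 0.936%). The share was thus higher in 3 of 3 replicates, although the interval of replicate 3 includes the share of other genes. Without Cacna1c and Cacna1a it was 36.9%, 37.1% and 30.6%, so that the direction turned in replicate 3. In replicate 1 only 58 of the 536 calls lay inside its own few peaks, against 796 of 944 in replicate 2 and 645 of 815 in replicate 3.

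The share of 5mC was 34.7% (30.7 to 38.9%), 35.9% (32.8 to 39.1%) and 36.4% (33.1 to 39.9%) in the same order, a mean of 35.7 ± 0.892%. In other genes it was 40.7%, 39.9% and 41.0% (40.6 ± 0.570%). It was lower in 3 of 3 replicates. The intervals did not overlap those of the other genes, but they cover counting error only, as calls on 1 read are not independent. Without Cacna1c and Cacna1a the share was 37.9%, 38.7% and 44.9%, above that of other genes in replicate 3. Unmodified C made up 29.9%, 27.1% and 30.9%, against 28.8%, 27.8% and 27.3% in other genes. No test was made of these sums.

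By family, the L-type alpha1 genes had 39.1%, 41.6% and 39.6% 5hmC in replicates 1, 2 and 3, above other genes in each. Summed over the replicates, 5hmC was 40.4% of their 468 calls, of which Cacna1c gave 401 and Cacna1d 67. The IP3 receptors had 27.9%, 35.7% and 22.5%, on both sides of other genes. Replicate 3 gave 89 of their 160 calls, of which 26.3% were 5hmC and 55.6% 5mC. The P/Q, N and R-type genes had 25.5% of 591 calls as 5mC, summed over the replicates. The gamma subunits, that is Cacng2, had 33.3% of 138 calls as 5hmC and 47.8% as 5mC. In some families the replicates lay far apart. In the beta genes 5hmC was 46.7%, 45.5% and 16.7% in replicates 1, 2 and 3, and in the ryanodine receptors, which are Ryr2 alone, 33.3%, 10.5% and 61.5%.

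For single genes, the log ratio of 5hmC to all other calls was set against that of all other regions in protein-coding genes and tested with limma (two-sided, Benjamini-Hochberg adjustment) in the 975 genes with at least 5 calls in each replicate. Of these, 3.59% were called higher and 1.95% lower, with a median of 0.22 (log2). Of the 44 genes 13 could be tested, with a median of 0.37, and none was called (2 of the 13 and 183 of the 975 had an unadjusted p below the threshold). The highest was Cacna1e, with 38.9% of 18 calls, 52.6% of 57 and 39.1% of 23 in replicates 1, 2 and 3 (log2 ratio 0.93 ± 0.37, SE, limma adjusted p = 0.122). In Cacna1c, which had more calls, the shares were 37.3% of 110, 44.3% of 167 and 36.3% of 124 (mean 39.3 ± 4.38%, SD, n = 3; log2 ratio 0.53 ± 0.19, SE, limma adjusted p = 0.0684). All 3 lay above the shares of other genes. Its limma adjusted p passed the threshold with a minimum of 1 call and with a pseudocount of 2. In Cacna1a the shares were 29.4% of 109, 29.5% of 173 and 35.3% of 201, on both sides of those of other genes. Those of Cacna1i lay close together, at 27.3% of 44, 26.2% of 61 and 27.3% of 33, below the other genes in each replicate, and did not pass the test (log2 ratio -0.30, limma adjusted p = 0.700).

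The replicates of the pumps and auxiliary subunits lay on both sides of the other genes in most cases. Atp2b2 had 28.6% of 28, 42.4% of 66 and 27.3% of 55, and Atp2b1 33.3% of 12, 36.4% of 55 and 39.6% of 48, above other genes in each. Cacnb4 had 45.2% of 42, 46.8% of 47 and 19.5% of 41. Its replicate 3 lay far below the others. Cacna2d2 had 40.0% of 10, 40.4% of 52 and 26.9% of 26, and Cacng2 45.3% of 53, 31.0% of 42 and 20.9% of 43. Cacna2d3 had too few calls in replicate 1 (3) to be tested, with 35.4% of 48 and 39.1% of 64 in replicates 2 and 3. Cacna1d had 4 of 5 calls in replicate 1, 31.0% of 42 and 60.0% of 20.

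For 5mC the same test called 2.36% of the 975 genes higher and 1.64% lower, and 1 of the 13 genes, Cacna1a, lower. Its share of 5mC was 28.4% of 109 calls, 31.2% of 173 and 20.9% of 201 in replicates 1, 2 and 3 (mean 26.9 ± 5.34%, SD, n = 3), below that of other genes in each (log2 ratio -0.90 ± 0.21, SE, limma adjusted p = 0.00400). A single region held 150 of its 483 calls. It covers 251 coding bases of exon 19 of the canonical transcript (302 bp with 45 CpG sites), and its calls were 34.0% 5hmC, 19.3% 5mC and 46.7% C. Without it the 5mC shares of Cacna1a were 35.1%, 32.5% and 22.7%, still below those of other genes in each replicate. The call of Cacna1a was lost without replicate 3 and without weights. Cacna1c also lay below other genes in each replicate, with 31.8%, 30.5% and 28.2% 5mC. It did not pass the test (log2 ratio -0.64 ± 0.22, SE, limma adjusted p = 0.0742), but was called lower with a minimum of 1 call. Lower at an unadjusted limma p below 0.05 were 4 of the 13 and 94 of the 975 genes. Unmodified C made up 42.2%, 39.3% and 43.8% of the calls of Cacna1a, against 28.8%, 27.8% and 27.3% in other genes. The 3 shares add up to all calls and are not independent measures.

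**Figure D4:**
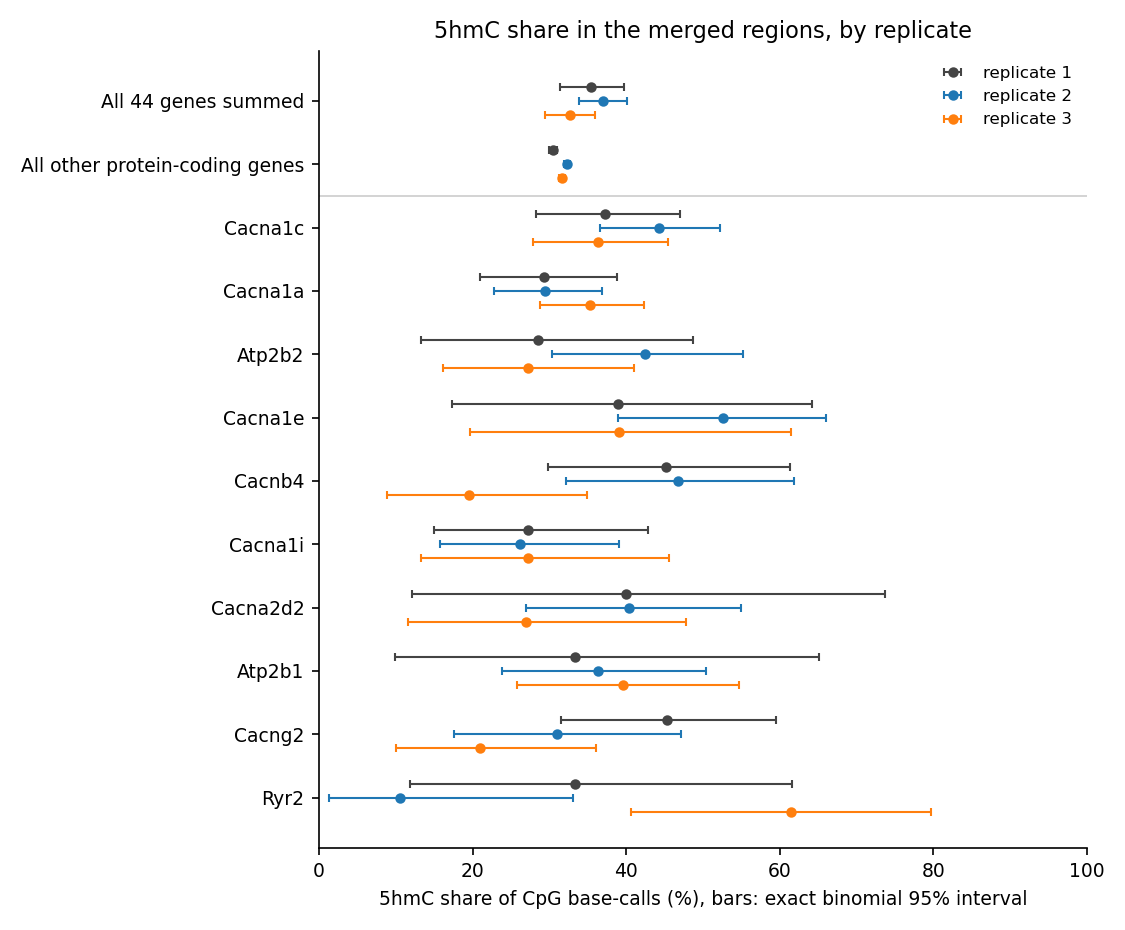
Share of 5hmC among CpG base-calls in the merged regions (horizontal axis, %) by replicate, with exact binomial 95% intervals, for the 44 genes summed, for all other protein-coding genes and for the 10 genes with at least 10 calls in each replicate. The points of the summed genes lie to the right of those of other genes. Single genes have wide intervals, and those of replicates 2 and 3 do not overlap in Ryr2.

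The shares of single regions spread widely, and differences between regions were not tested. Of the 176 regions, 76 had at least 10 calls over the replicates, and their 5hmC share ran from 0% to 68.2% with a median of 32.5%, against 33.3% over all regions in protein-coding genes. A region in intron 1 of Cacna1c (chr6:119079762-119080205) had 15 of 22 calls as 5hmC. The region of Cacna1d with peaks in 2 replicates had 15 of 23 as 5hmC and 3 as 5mC. At the other end, a region in intron 1 of Cacnb4 (chr2:52369599-52370069) had none in 25 calls, which allows a share of up to 12% (3 counts of 25, for counting error only), and one over exon 15 of Itpr3 had 2 of 29. In Itpr1, 25 of the 30 calls in a region of intron 4 were 5mC and 5 were 5hmC, all from replicate 3. No call was made in 10 of the 176 regions (5.68%, against 5.21% in other genes).

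The signalling partners of these genes were given by 5 lists of 93 other genes. Of these, 49 had a region, against 20% of all protein-coding genes, and they held 233 regions, or 19.5 per Mb, against 10.2 per Mb in all protein-coding genes. Gene length was not matched in these shares, and the lists too were chosen with earlier results of these data known. The calmodulin kinase and calcineurin genes held 69 regions in 18 genes (34.4 per Mb), and 10 of the 18 had a region. Ppp3ca, the catalytic subunit of calcineurin, had 21 regions, with 0, 14 and 11 peaks in replicates 1, 2 and 3, Camk4 had 15 and Camk2b 8. The genes of Gq signalling and IP3 production held 65 regions in 21 genes (16.7 per Mb), 10 of them with a region. Prkcb, a protein kinase C, had 16, Plcb4, a phospholipase C of Purkinje cells, 15, and Inpp5a, an IP3 phosphatase, 9. The accessory genes of stores and channels held 44 regions in 24 genes (14.9 per Mb), 11 with a region, with Rims1 (11), Asph (9) and Jph3 (6) first. The exchangers and mitochondrial uptake genes held 36 in 14 genes (17.9 per Mb), 11 with a region, with Mcu (10), Slc8a1 (6) and Slc8a2 (5) first. The calcium buffers and sensors held 19 in 16 genes (17.8 per Mb), 7 with a region, and Vsnl1, Ncald and Hpcal1 had 4 each.

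Of the 93 genes, 14 had at least 3 predicted peaks, and 2 of these, Prkcb and Plcb4, were called higher and none lower by edgeR, against 9.13% and 16.3% of the 657 genes tested. Prkcb had 1, 11 and 6 peaks (log2 difference 2.03, edgeR adjusted p = 6.21e-05) and Plcb4 0, 9 and 7 (1.83, edgeR adjusted p = 0.000936). Both lay above the prediction in replicates 2 and 3. With at least 1 predicted peak, 8 of 39 were called higher and none lower, against 9.0% and 2.59% of all genes tested. They were 3 calmodulin kinase and calcineurin genes, 3 genes of Gq signalling, 1 of exchange and mitochondrial uptake and 1 accessory gene. In the 5hmC share 2 of 20 were called higher by limma and none lower, against 3.59% and 1.95% of the genes tested. These were Camk4 (log2 ratio 1.15, limma adjusted p = 0.0141) and Asph, aspartate beta-hydroxylase (0.89, limma adjusted p = 0.0313). Both calls were lost without weights, where limma called none of the 975 genes (120 had an unadjusted p below 0.05).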

How the data were processed

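The authors base-called the nanopore reads with Dorado, aligned them to mm39 (GRCm39) with minimap2 and called peaks in each replicate with MACS2 against 1 untreated MinION library of the same DNA. The deposited peak lists give a fold enrichment (a ratio to the local background), −log10 p and q values and a display score. The base-call counts deposited by the authors were made with modkit at CpG sites within peaks of at least 1 replicate, as counts of 5hmC, 5mC, C and failed calls and a percent per site. Sites had 1 call in the median, so that all sites were used. The members and lists were chosen with earlier results of these data known.

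Peaks on chromosomes 1 to 19, X and Y were merged where they overlapped by 1 bp and assigned by midpoint to GENCODE M39 genes. Regions of 2 overlapping genes count for both in totals over genes. Peaks per gene were tested with edgeR 4.0.16 (intercept only, offset by gene length), with the F test formed from the fitted deviances. Where the replicates of a gene varied less than Poisson counting, the p-value was at least that of a Poisson test. Shares were tested with limma 3.58.1 on log2 ratios with a pseudocount of 0.5 and inverse binomial variance weights, so that a log2 ratio here includes the pseudocount. Both fits were tested on simulated data, where edgeR recovered 57% of genes whose density was raised by 2 (log2) and 13% of those lowered by 2, and limma 37% and 9% of genes whose 5hmC ratio was raised or lowered by 2. DESeq2 1.42.0 was an alternative. Genes described in full were those called, those with the most regions (10 for ties at the eighth) and those with a region in 2 replicates.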

Additional observations from a re-analysis of the deposited data

How the results depend on the processing

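With a fold enrichment of at least 4, which left few peaks, 13 genes had a region, at 3.61 per Mb and a ratio of 1.71 to other genes. Leaving out each replicate in turn gave 18 to 23 genes with a region, 8.47 to 21.4 regions per Mb and a ratio of 1.99 to 2.21. Other alternatives moved these 3 values by less than 1.5 times or 1 SD, with q of at most 0.01 giving 22 genes and 15.1 per Mb.

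The number of genes called by the density test was 167, and 65 with CpG dinucleotides as offset, 104 with TMM factors, 24 with DESeq2 (all higher), 327 with at least 1 predicted peak and 92 with q of at most 0.01. Without 1 replicate it was 58 to 173. Of the 44 genes 4 were called, and 2 with DESeq2, 8 with at least 1 predicted peak and 1 to 3 without 1 replicate. Without replicate 2, only Cacna1c was called. The log2 differences of Cacna1a and Atp2b2 were then 2.18 and 1.79, near the 2.34 and 1.74 with all replicates. Of the calls, 60 of 167 were higher, against 47 of 65 with CpG dinucleotides, 60 of 104 with TMM factors and 254 of 327 with at least 1 predicted peak.

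For 5hmC 54 genes were called and none without weights, with 9 to 38 when 1 replicate was left out. None of the 44 was called, except 1 with a minimum of 1 call and 1 with a pseudocount of 2, both Cacna1c. For 5mC 39 genes were called, 23 with at least 10 calls, 63 with at least 1 call, 0 without weights, 21 without regions in which a CpG had 20 calls and 13 to 28 without 1 replicate. Of the 44 genes 1 was called, 2 with at least 1 call, 0 without weights and 0 to 1 without 1 replicate.

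The summed 5hmC share of 35.0% was 34.0 to 36.2% without 1 replicate, and 40.6% at sites with at least 3 calls. The median site had 1 call and no site more than 4, so that the 40.6% rests on the deepest sites only. No site of these genes had 5 calls in a replicate, so that a minimum of 5 calls gave no value. No paired analysis was possible because the series has 1 group.

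Single values that changed sign were all of genes not called under either setting. With 1 replicate left out, the density difference (log2) ran from -0.23 to 1.40 for Cacna1e, from -3.27 to 0.82 for Cacna2d1, from -0.32 to 0.032 for Cacna2d3, from -1.18 to 0.19 for Itpr1, from -0.82 to 0.40 for Itpr2 and from -0.41 to 0.16 for Ryr2. The log2 ratio of 5hmC ran from -0.21 to 0.44 for Atp2b2, from -0.14 to 0.14 for Cacna1a, from -0.16 to 0.95 for Cacnb2, from -0.37 to 0.52 for Cacng2 and from -0.50 to 1.22 for Ryr2. That of 5mC ran from -0.51 to 0.25 for Cacnb4, from -0.065 to 1.34 for Itpr2 and from -0.34 to 0.88 for Ryr2. The density difference also became -0.52 for Cacna2d1 and -0.44 for Itpr2 with DESeq2, -0.11 for Itpr2 with q of at most 0.01, 0.35 for Cacna2d3 and 0.29 for Ryr2 with CpG dinucleotides, and 0.39 for Cacna2d3, 0.0093 for Itpr1 and 0.34 for Ryr2 with TMM factors. The log2 ratio of 5hmC became -0.0034 for Cacna1a and -0.40 for Cacnb2 without weights, and -0.028 for Cacna1a without regions in which a CpG had 20 calls. The cause was not tested.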
